A study of Glycine max with 6 samples.

Results

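The soybean MYB transcription factors on this array are described here in the paraveinal mesophyll (PVM) and the palisade parenchyma (PP) of the leaf. A member is a soybean probe set whose single gene symbol in the platform annotation is MYB followed by a number, which gave 98 probe sets for 64 symbols among 37593 soybean probe sets, of which 8677, for 6029 symbols, have a single symbol at all. Of the 64 symbols, 40 have 1 probe set, 15 have 2, 8 have 3 and MYB60 has 4. The rule reads the annotated name and uses no measured value.

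RNA was measured on 6 one-colour Affymetrix arrays, 3 per layer, each hybridised with RNA of one microdissected sample from mature leaves of untreated Glycine max. PVM is a cell layer between palisade and spongy tissue that stores nitrogen as vegetative storage protein, and PP is the upper photosynthetic layer. Plants came from growth chambers, with no treatment and no genetic change named, and cells were cut by laser from fixed, paraffin-embedded sections and pooled within each sample. Replicates are called biological in the design text. No label read here gives the hour of harvest or says whether a PVM and a PP sample share a plant. One text field of the PP samples speaks of paraveinal cells; palisade was taken from every other field.

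MYB proteins bind DNA through repeats of the MYB domain, each of which folds into helices that contact the bases. Plants have large MYB families, whose members act on phenylpropanoid and flavonoid synthesis, cell shape, stress responses and development, often together with bHLH and WD40 partner proteins. A separate branch with a single repeat includes LHY and its relatives, morning genes of the circadian clock. Soybean MYB numbers do not follow those of Arabidopsis, so a shared number does not mean a shared role.

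Values are deposited probe-set intensities unless a log2 difference is named. A log2 difference is PVM minus PP after log2(intensity + 16) and quantile normalization, with its standard error (SE) and adjusted p from limma over all 25314 soybean probe sets tested. Background on each array was the 95th percentile of the probe sets for other organisms, and lay between 10.96 on PVM array 2 and 20.7 on PP array 3. Testing was limited to soybean probe sets that exceeded it on 3 or more of the 6 arrays. Intensities of different probe sets are not comparable as transcript amounts. In these pooled cell samples, fewer cells with a transcript and less of it per cell cannot be told apart.

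The layer labels were checked on marker genes, each on its brightest probe set, so their other probe sets were not counted. PIP symbols, also planned as paraveinal markers, were not looked up. All 6 paraveinal markers (vegetative storage proteins and lipoxygenases) were higher in PVM, with a summed intensity of 31736 to 33532 on PVM arrays and 13883 to 22839 on PP arrays. The 5 green mesophyll markers, 1 of them higher in PVM, were above background on all arrays of both layers, with sums of 37242 to 48590 in PVM and 57929 to 68637 in PP. The sums are of deposited intensity. After normalization the log2 differences of the green markers ran from -0.68 to 0.058, the lowest adjusted p in limma being 0.429. Those of the paraveinal markers ran from 0.73 to 2.48, the lowest being 0.0897. VSPA, at 0.73, overlapped between layers in deposited intensity. The sole vascular marker with a probe set, SUT1, ranged from 199 to 617 in PVM and from 131 to 284 in PP, and no epidermal or guard cell marker of the list had a symbol in the annotation. PP arrays 1 and 2 correlated at 0.947 over all tested probe sets, above every other pair (0.811 to 0.885). PVM arrays correlated with each other at 0.847 to 0.870 and with PP arrays at 0.811 to 0.878, so by this measure they did not group apart from PP.

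About as many MYB probe sets lay above background in PVM as in PP. On all 3 PVM arrays 37 of the 98 were above background (37.8%), on all 3 PP arrays 36 (36.7%), and 33 on all 6. Over all soybean probe sets the shares were 54.5% in PVM and 52.2% in PP, so the MYB shares were the lower ones. At or below background on every array were 28 MYB probe sets (28.6%), against 18.3% of all soybean probe sets. By symbol, 27 of 64 had a probe set above background on all PVM arrays, 26 on all PP arrays and 24 on all 6, while 15 were at or below background throughout.

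Other transcription factor families are given for scale. Of 103 WRKY probe sets 27.2% were above background on all 6 arrays, of 88 bZIP probe sets 55.7% and of 30 NAC probe sets 20.0%, with the MYB share at 33.7%. These shares were not tested against each other. The share of MYB probe sets above background ran from 43.9% to 60.2% on the PVM arrays and from 42.9% to 50% on the PP arrays. PVM array 3 had the highest share for MYB as it had for all soybean probe sets (68.5%), and PP array 3 the lowest (42.9% and 58.4%). Of the 14 MYB probe sets above background on exactly 1 array, 7 were so on PVM array 3 (50%), against 824 of 3188 soybean probe sets (25.8%). The part of that array's higher share in this count was not tested.

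**Figure D1:**
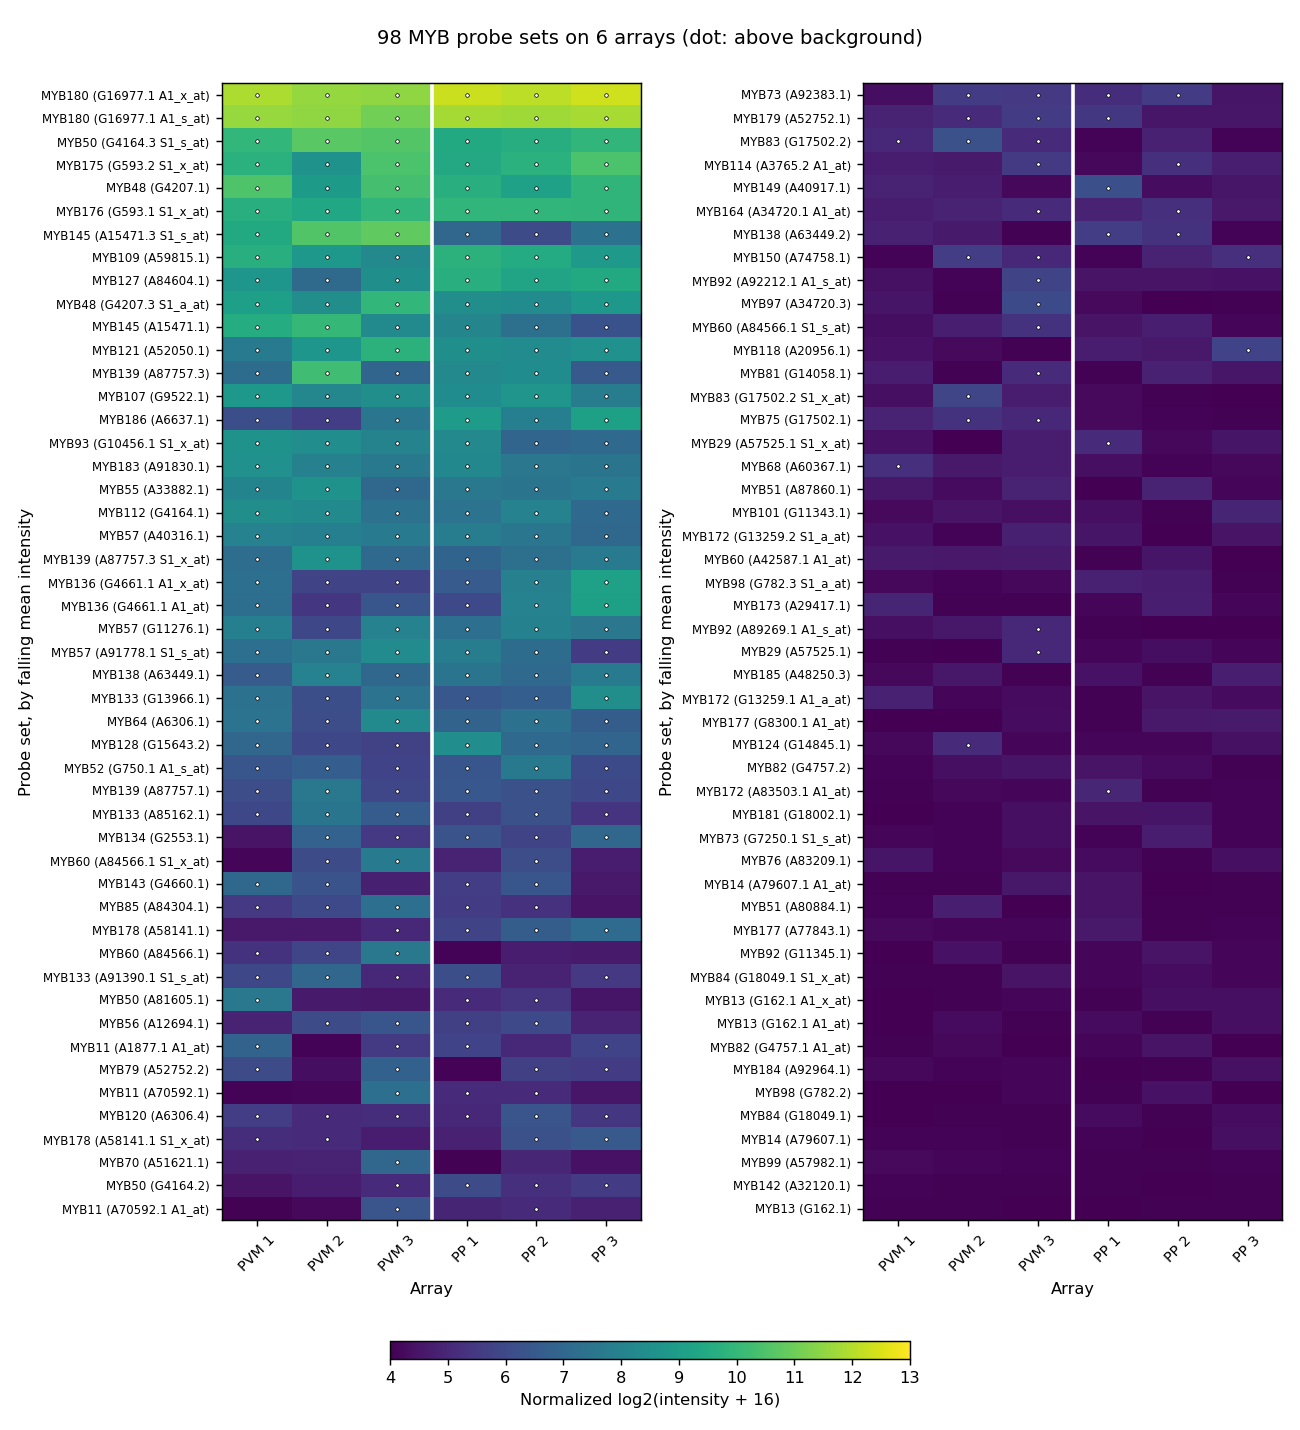
The 98 MYB probe sets (rows, by falling mean intensity) on the 6 arrays (columns), coloured by normalized log2(intensity + 16), with a dot where the deposited value is above that array's background. Dots fill whole rows for 33 probe sets, and 28 rows have none; A and G in the row names stand for the prefixes GmaAffx and Gma.

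**Figure D2:**
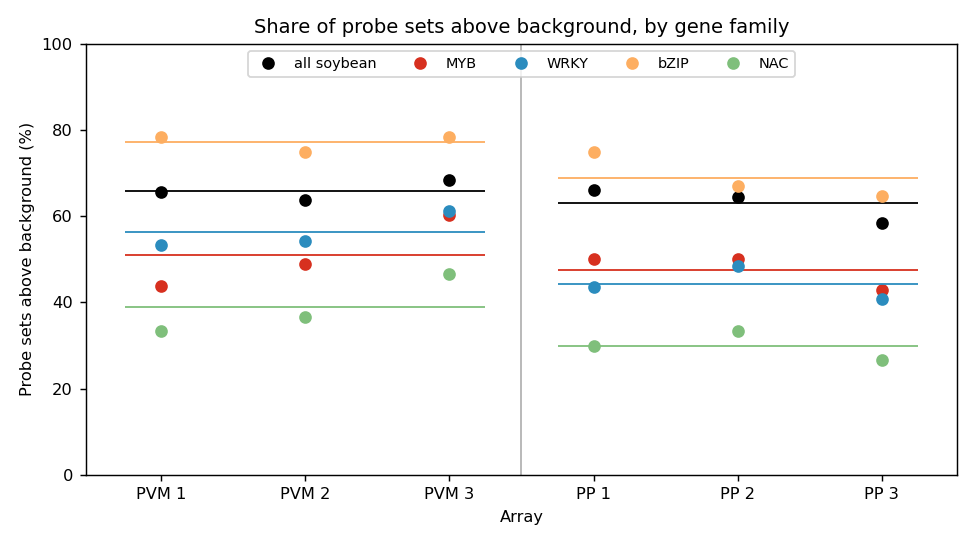
Share of probe sets above background (percent, y axis) on each array (x axis) for MYB, WRKY, bZIP and NAC symbols and for all soybean probe sets, with a line at the mean of each layer's 3 arrays. MYB points lie between 42.9% and 60.2%, below the all-soybean point on each array.

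Of the 98 probe sets, 51 were tested, for 36 symbols, and none passed an adjusted p of 0.05. Over all soybean probe sets, 11 passed with PVM higher (0.0435%) and 0 with PP higher (0%). Adjusted p for the 51 ran from 0.0897 to 0.983. At an unadjusted p under 0.05 limma gave 4 MYB probe sets higher in PVM (7.84%, against 6.53% of all tested) and 5 higher in PP (9.80%, against 5.63%). Normalized values of the layers did not overlap for 5 MYB probe sets with PVM higher (9.80%, against 8.62%) and for 6 with PP higher (11.8%, against 10.1%), together 21.6% against 18.7%. An absolute log2 difference above 1 was seen in 11 of 51, or 21.6%, against 15.6% of all tested. These shares are near those of all tested probe sets.

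The 51 had a median log2 difference of 0.27, with 31 of them above 0 (60.8%), against a median of -0.06 and 46.3% above 0 over all tested. Without PVM array 3 the median was -0.06, with 21 of 45 above 0, where both the arrays and the probe sets tested differ. With 1 of the other arrays left out it lay between 0.11 and 0.21. The other families also had medians above 0, at 0.29 for WRKY (39 of 55 above 0), 0.21 for NAC (5 of 10) and 0.13 for bZIP (38 of 68). The quartiles of the 51 were -0.35 and 0.58, and the median SE was 0.50. Only 2 of the 51, MYB60 and MYB83 probe sets, entered the test with no PP array above background, and none entered with no PVM array above it.

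**Figure D3:**
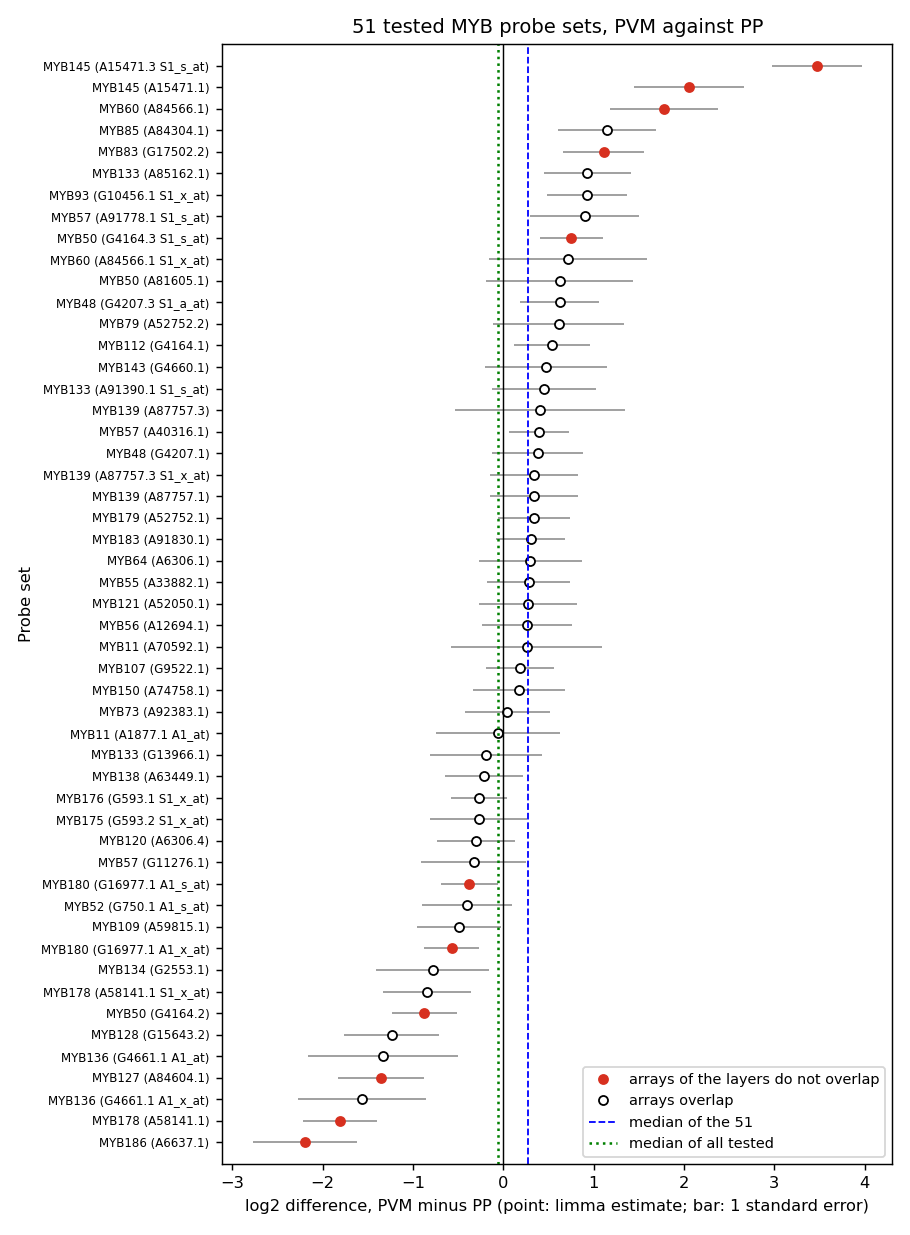
log2 difference (x axis, PVM minus PP, limma estimate with 1 SE) of the 51 tested MYB probe sets (y axis). The values run from -2.20 for MYB186 to 3.47 for MYB145, with filled points for the 11 probe sets whose layers do not overlap.

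MYB145 differed most of the tested members. It has no role known well enough to state here. Its brighter probe set measured 708, 1524 and 1665 on PVM arrays 1 to 3 and 111, 54.7 and 134 on PP arrays 1 to 3. Every PVM array was above every PP array, with a mean of 1299 ± 516 in PVM and 99.9 ± 40.8 in PP (SD, n = 3 each). The log2 difference was 3.47 (SE 0.50), an 11.1-fold higher normalized level in PVM, with an adjusted p of 0.0897 in limma. It passed in 2 of the 19 other settings in which it was tested, with an intensity trend and robust prior (adjusted p = 0.00586) and with a pseudocount of 64 (0.0456), and the difference stayed between 2.99 and 3.89 in all of them.

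A second MYB145 probe set measured 752, 1016 and 305 in PVM and 249, 140 and 52.0 in PP. The layers again did not overlap, though PVM array 3 and PP array 1 came close. Its log2 difference was 2.06 (SE 0.61, adjusted p = 0.261), and 1.56 without PP array 3. The annotation gives the 2 probe sets different gene IDs, of which the RefSeq table holds that of the second probe set, also as MYB145. The first carries the mark for sequence shared between transcripts, so which gene copies it reads is uncertain.

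MYB60 and MYB83 were above background on all 3 PVM arrays and on no PP array, the pattern of 2.04% of the MYB and 0.771% of all soybean probe sets. The reverse pattern, above background on all PP arrays and no PVM array, was found for none of the MYB probe sets and for 0.194% of all. MYB60 measured 22.9, 33.9 and 190.5 in PVM and 1.23, 12.7 and 10.2 in PP on the probe set with this pattern. PVM array 3 stood far above the other PVM arrays. The log2 difference was 1.78 (SE 0.59, adjusted p = 0.314). With PP values set no lower than background, the fold bound was 2.30 towards PVM, and the bound itself was not tested. Deposited means were 82.4 ± 93.8 in PVM and 8.05 ± 6.03 in PP (SD, n = 3 each). The probe set was above background on just the 3 arrays that testing needs. Leaving out any PVM array therefore removed it from the test, as it did the MYB83 probe set.

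The 3 other MYB60 probe sets did not repeat that pattern. The brightest of them measured 1.22, 43.9 and 203 in PVM and 15.4, 56.9 and 11.9 in PP, with overlapping layers and a log2 difference of 0.72 (SE 0.87), or 1.63 without PVM array 1 and 0.46 without PP array 3. Of the remaining pair, one was above background on PVM array 3 only (29.9) and one on no array. PVM array 3 gave the highest value on all 4 probe sets.

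MYB83 measured 14.8, 50.2 and 20.5 in PVM and 0.904, 14.7 and 1.37 in PP. The log2 difference was 1.11 (SE 0.45, adjusted p = 0.387), and the fold bound, not itself tested, was 1.30 towards PVM. Deposited means were 28.5 ± 19.0 in PVM and 5.65 ± 7.83 in PP (SD, n = 3 each), with most values near background. Its other probe set had 3.97, 34.8 and 10.6 in PVM and 3.28, 0.657 and 0.363 in PP. MYB75, whose probe set shares the cluster number in its name with those of MYB83, measured 12.4, 16.1 and 18.2 in PVM and 3.16, 1.35 and 0.716 in PP. On all 3 probe sets of this cluster the PVM arrays were above the PP arrays after normalization, but only the first was bright enough to be tested.

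The remaining tested members with the largest differences towards PVM overlapped between layers. MYB85 measured 28.8, 38.8 and 154 in PVM and 35.7, 25.9 and 6.94 in PP. PVM array 1 lay among the PP values, and the difference of 1.15 (SE 0.54) was 0.62 when PVM array 3 was left out. MYB93 measured 387, 337 and 254 in PVM and 281, 105 and 106 in PP, where PP array 1 lay among the PVM values (0.93, SE 0.44). This probe set carries the mark for shared sequence. Another probe set, which the annotation gives to both MYB180 and MYB93, lay the other way, at -0.43, with overlapping deposited intensities. The direction for MYB93 is therefore unsettled. MYB57 on 1 of its 3 probe sets measured 146, 180 and 319 in PVM and 200, 126 and 28.1 in PP (0.90, SE 0.60), or 0.27 without PP array 3 and 1.38 without PP array 1. The other MYB57 probe sets differed by 0.39 and -0.33, both with overlap, and the latter rose to as much as 0.33 over the settings tried. None of these genes had an adjusted p below that of MYB85, 0.454.

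Of the tested members, MYB186 had the largest log2 difference towards PP. It is listed in the RefSeq table as a synonym of LCL1, together with LHY and GmLHY1a, and LHY acts as a morning repressor in the clock of Arabidopsis. MYB186 measured 59.0, 25.0 and 185 on PVM arrays 1 to 3 and 456, 215 and 533 on PP arrays 1 to 3. Each PP array exceeded each PVM array, with PVM array 3 and PP array 2 close together, and the means were 89.6 ± 84.2 in PVM and 401 ± 166 in PP (SD, n = 3 each). The log2 difference was -2.20 (SE 0.58), a 4.58-fold higher normalized level in PP, with an adjusted p of 0.230.

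Probe sets annotated as LHY, which the rule does not take in, were also higher in PP on average. One measured 76.4, 157 and 88.3 in PVM and 362, 307 and 478 in PP, without overlap (-1.85 on the log2 scale, adjusted p = 0.162). The other overlapped between layers, with 273, 118 and 73.7 in PVM and 265, 162 and 338 in PP (-0.90, adjusted p = 0.548). Since LHY and MYB186 are synonyms of the same RefSeq gene, these 3 probe sets may read a single gene and are not separate evidence.

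MYB114 and MYB134 belong to the same branch: RefSeq names MYB134 and GmLHY2b as synonyms of MYB114. The MYB134 probe set measured 5.53, 89.6 and 35.8 in PVM and 65.8, 44.4 and 98.3 in PP, with overlap and a log2 difference of -0.78 (SE 0.62, adjusted p = 0.668). The MYB114 probe set was above background on PVM array 3 (38.4) and PP array 2 (25.5) only and was not tested. Of the 6 probe sets with clock-type symbols or synonyms, 4 were tested, all 4 with a negative difference. They were grouped after their values had been seen, and the MYB134 difference was smaller in size than those of MYB178, MYB136, MYB127, MYB128 and the dim MYB50 probe set.

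MYB178 lay next in the PP direction and has no role stated here. On one probe set it measured 7.24, 5.72 and 18.0 in PVM and 44.8, 84.99 and 113 in PP, so that all PP arrays and only PVM array 3 were above background. The log2 difference was -1.81 (SE 0.41, adjusted p = 0.177), and it ran from -0.94 with a pseudocount of 64 to -2.76 with a pseudocount of 1. A second probe set, with the mark for shared sequence, gave 18.8, 12.2 and 11.02 in PVM and 13.8, 60.6 and 63.7 in PP. There PP array 1 overlapped with PVM, and the difference was -0.84 (SE 0.49), or -1.36 without PP array 1 and -0.53 without PP array 3.

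MYB127 measured 424, 116 and 346 in PVM and 777, 575 and 704 in PP, clear of background on all arrays. The layers did not overlap, with means of 296 ± 160 in PVM and 685 ± 102 in PP (SD, n = 3 each), and the log2 difference was -1.36 (SE 0.48, adjusted p = 0.331), or -0.86 without PVM array 2. MYB128 measured 116, 36.2 and 48.7 in PVM and 313, 117 and 94.0 in PP (-1.24, SE 0.52), or -0.78 without PP array 1. Its PVM array 1 and PP array 2 nearly coincided, and PP array 3 lay below PVM array 1.

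MYB136 spread widely among the PP arrays. Its brighter probe set measured 146, 33.1 and 51.3 in PVM and 82.6, 219 and 542 in PP. Its difference was -1.56 on the log2 scale (SE 0.70), and -0.93 when PP array 3 was left out. The other gave 146, 18.4 and 82.5 in PVM and 49.96, 232 and 525 in PP (-1.33, SE 0.83), and -0.63 without PP array 3, -2.20 without PP array 1 and -0.84 without PVM array 2. PP array 1 lay within the PVM range on both.

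**Figure D4:**
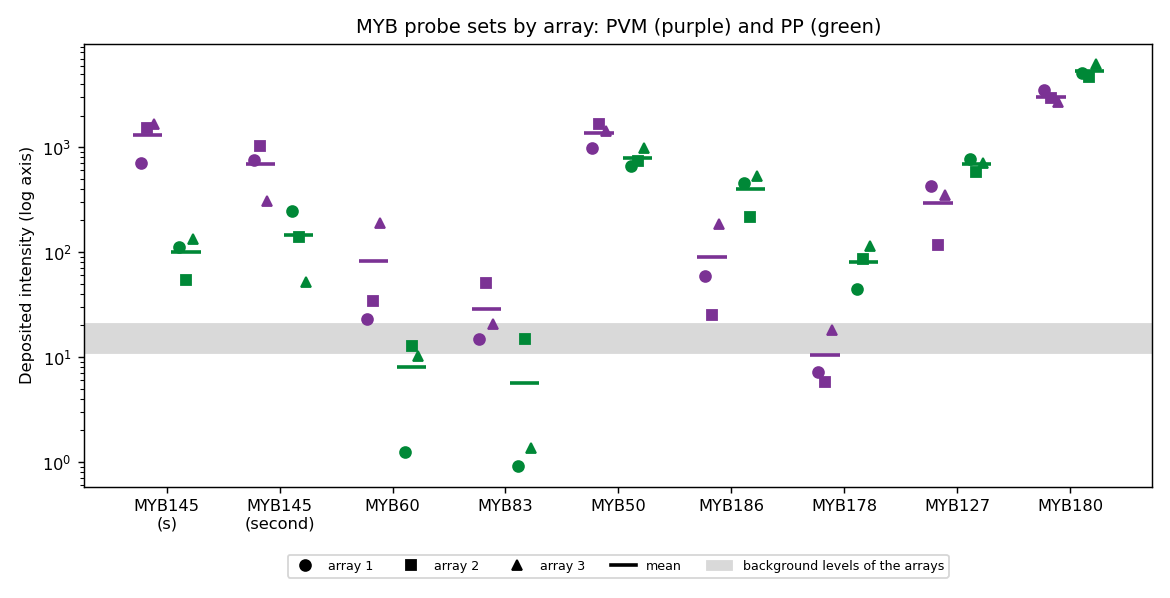
Deposited intensity (y axis, log scale) on each array for 9 probe sets of 8 genes, with PVM in purple and PP in green, 1 marker shape per array and a bar at the mean of 3; MYB145 is shown with its s_at probe set and its second one. The 9 are all among the 11 tested probe sets whose layers do not overlap, so their lack of overlap follows from the choice. The dim MYB50 probe set, higher in PP, and the second MYB180 probe set are not shown. The MYB60, MYB83 and MYB178 values reach into the grey band of background levels (10.96 to 20.7).

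The 6 brightest MYB probe sets had log2 differences of 0.75 or less in size. MYB180, the brightest, measured 3527, 2915 and 2666 in PVM and 5114, 4710 and 6193 in PP on one probe set. Its second probe set measured 2883, 2757 and 2003 in PVM and 3719, 3591 and 3997 in PP. Both probe sets carry the mark for shared sequence, so which genes they read is uncertain. All PP arrays were above all PVM arrays on both, and the log2 differences were -0.57 (SE 0.31, adjusted p = 0.502) and -0.38 (SE 0.31, adjusted p = 0.682) after quantile normalization, the latter -0.22 without PVM array 3. With all 6 arrays, no quantile normalization and centring on the soybean median, the 2 differences were -0.84 and -0.61.

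MYB176, which in soybean acts on isoflavonoid synthesis through the chalcone synthase gene CHS8, was bright and even. It measured 787, 667 and 928 in PVM and 945, 959 and 957 in PP. The deposited PP values were all above the PVM values by a small margin, and the normalized ones overlapped (log2 difference -0.27, SE 0.31, adjusted p = 0.785). It was -0.13 without PVM array 2 and -0.42 without PVM array 3. MYB175, whose probe set shares a cluster number with that of MYB176, spread more, with 856, 399 and 1304 in PVM and 646, 837 and 1461 in PP (-0.27, SE 0.53). Its difference ran from -0.70 without PVM array 3 to 0.22 without PVM array 2. Both of these probe sets carry the mark for shared sequence, so which of the 2 genes each reads is uncertain.

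MYB48 measured 1413, 493 and 1234 in PVM and 762, 527 and 945 in PP on its brighter probe set (0.38, SE 0.50), with PVM array 2 below all PP arrays. The difference ran from 0.083 without PVM array 1 to 0.90 without PVM array 2. Its second probe set measured 531, 351 and 942 in PVM and 324, 298 and 427 in PP (0.62, SE 0.44), also with overlap. MYB109 measured 786, 451 and 297 in PVM and 841, 707 and 432 in PP (-0.49, SE 0.46), overlapping between layers. Both genes were above background on all arrays of both layers.

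MYB50 gave opposite results on its probe sets. The brightest, which carries the mark for shared sequence, measured 979, 1657 and 1440 in PVM and 665, 745 and 972 in PP. Its layers did not overlap, though PVM array 1 and PP array 3 differed by little, and the log2 difference was 0.75 (SE 0.35, adjusted p = 0.441). A dim probe set measured 5.19, 6.88 and 19.9 in PVM and 53.3, 24.3 and 28.4 in PP, without overlap the other way (-0.88, SE 0.36, adjusted p = 0.398). The remaining probe set overlapped, with 189 on PVM array 1 and at most 29.1 on every other array. The direction for this gene is therefore unsettled.

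Of 11 genes with more than 1 tested probe set, 7 had the same sign on all of them and 4 did not. Those 4 were MYB50, MYB57, MYB133 and MYB11. MYB139 had the closest values, 0.34 to 0.41 on 3 probe sets, although PVM array 2 was the highest array on each and reached 1221 on one of them. Over 10 settings of scaling, pseudocount or 1 array left out, these 3 differences fell as low as -0.18, -0.65 and -0.15. The sign for MYB139 is therefore unsettled. The 6 cluster numbers shared by a pair of MYB symbols each held 12 symbols in all, among them MYB64 with MYB120 and MYB79 with MYB179. RefSeq lists MYB120 as a synonym of MYB64, and MYB79 and MYB179 both as synonyms of MYBZ2, so the symbols overstate the number of genes measured.

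**Figure D5:**
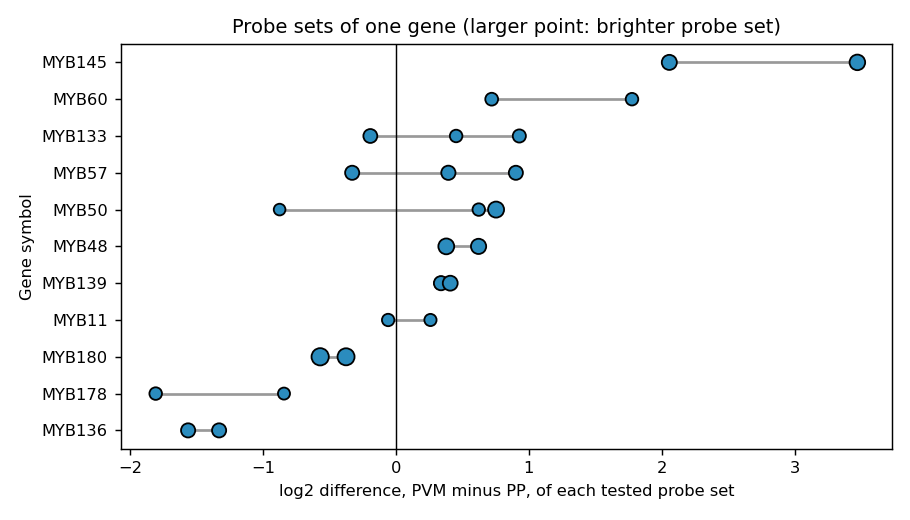
log2 difference (x axis, PVM minus PP) of each tested probe set for the 11 MYB genes (y axis) that have several, with larger points for brighter probe sets. MYB50, MYB57, MYB133 and MYB11 straddle 0, whereas both MYB145 points lie above 2 and both MYB136 points below -1.

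Of the members named for a known role in soybean, only MYB133 and MYB176 were bright enough to be tested, whereas 36 of all 64 MYB symbols were. MYB133, an activator of isoflavonoid synthesis, was above background on at least 2 arrays of each layer on all 3 of its probe sets, without a common direction. One measured 46.9, 167 and 97.4 in PVM and 39.1, 62.0 and 23.1 in PP (0.93, SE 0.48, or 0.50 without PVM array 2), where only PVM array 1 lay among the PP values. Another had 46.9, 105 and 17.7 in PVM and 58.6, 16.5 and 25.9 in PP, overlapping throughout (0.45, SE 0.58, from -0.054 without PVM array 2 to 0.94 without PVM array 3). The last measured 159.9, 46.8 and 169.7 in PVM and 74.1, 86.7 and 316 in PP, with a difference of -0.19 (SE 0.62). The sign of that difference turned without PP array 3 (0.42) and without PVM array 2 (0.21). MYB29, another isoflavonoid regulator, was above background on 1 array for each of its probe sets, PVM array 3 (19.0) for one and PP array 1 (19.5) for the other.

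MYB76, MYB92 and MYB177, which raise salt or freezing tolerance when expressed in Arabidopsis, were dim. MYB76 and MYB177 were at or below background on all 6 arrays, as were MYB84, which acts in drought tolerance, and MYB14, which acts on plant architecture. MYB92 was above background only on PVM array 3, at 19.1 on one probe set and 52.5 on another. MYB118, tied to drought and salt tolerance, was above background on PP array 3 only, at 34.1. A value at or below background does not show that the transcript was absent.

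In all, 47 MYB probe sets were not tested. Of these 28 were above background on no array, 14 on 1 and 5 on 2, and their highest single value was 123, for MYB70 on PVM array 3. The 15 symbols at or below background throughout were MYB13, MYB14, MYB51, MYB76, MYB82, MYB84, MYB98, MYB99, MYB101, MYB142, MYB173, MYB177, MYB181, MYB184 and MYB185. The 26 tested probe sets that the naming rule did not pick lay between -0.78 and 0.62 in log2 difference, 19 of them higher in PVM and 7 in PP, with no adjusted p below 0.630.

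Partners and targets of MYB proteins were looked up by symbol. No bHLH or WD40 symbol of the lists is in the annotation. Of 71 probe sets for flavonoid and isoflavonoid enzymes, which MYB proteins are known to act on in plants, 30 were tested and none passed over all probe sets. The list had 17 higher in PVM and 13 in PP, with a median of 0.18 against -0.06 over all tested. The smallest p belonged to IFS2, isoflavone synthase, at 175, 306 and 307 in PVM and 79.6, 51.9 and 13.7 in PP, without overlap (2.24, SE 0.51, adjusted p = 0.177). IF7GT, an isoflavone glucosyltransferase, differed by 1.92 (adjusted p = 0.226). CHI4A, annotated as a chalcone isomerase by its symbol, differed by 1.67 (adjusted p = 0.262). F3H, flavanone 3-hydroxylase, differed by 1.11 (adjusted p = 0.377), which completes the 4 symbols picked for the smallest p. Second probe sets of CHI4A and F3H differed less, by 0.985 and 0.997 (adjusted p = 0.530 and 0.556), with overlapping deposited intensities. The IFS2 probe set and the first of F3H carry the mark for shared sequence. Towards PP, the largest differences were those of FLS1, flavonol synthase, at -1.15 and -0.97 on 2 probe sets, followed by C4H, cinnamate 4-hydroxylase, at -0.84 and -0.82. FLS1 and C4H were named after their values were seen. CHS8, given because MYB176 acts on it, measured 18.3, 22.1 and 33.2 in PVM and 2.56, 14.4 and 11.2 in PP, where no array exceeded background. The CHS8 probe set, which carries the mark for shared sequence, had a log2 difference of 0.81 (SE 0.33, adjusted p = 0.391). Its fold bound, not itself tested, was 1.24 towards PVM, with means of 24.5 ± 7.75 and 9.37 ± 6.11 (SD, n = 3 each).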

How the data were processed

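The authors deposited an intensity on a linear scale for every probe set of every array; the 2% trimmed mean was 125 on each array. How probes were summarised and scaled, and by which program, was not given in the sources read. The values were turned into log2(intensity + 16) and quantile-normalized over all 61170 probe sets. Background was taken from 23350 probe sets for other organisms. PVM and PP arrays were compared in R 4.3.3 by limma 3.58.1, with 2-sided moderated tests and no covariate, over 25314 soybean probe sets, with Benjamini-Hochberg adjustment at 0.05. An exact permutation test of 3 against 3 arrays cannot go below p = 0.1 and was not used. The procedure was tested on simulated data with equal spread on every array and with differences larger than those of most MYB probe sets. Where all arrays of a layer were at or below background, a fold is a lower bound, with those arrays set at the higher of background and their own value. Symbols came from the platform annotation, and 89 of the 98 probe sets matched the RefSeq table of Glycine_max_v4.0 by gene ID; synonyms were read from it. The files name no genome build, so no coordinates are given.

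Named were the 8 tested probe sets with the largest difference each way, the 6 brightest, those above background in all arrays of one layer and none of the other, the examples MYB145, MYB186, MYB178 and MYB60, and members with a known role. All other members named were named after their values were seen. Members and lists were chosen with earlier results of these data known. Alternatives tried were the scaling, pseudocount, background level, filters, prior, array weights, a replicate block, 1 probe set per gene and each array left out. The number of arrays limits the precision.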

Additional observations from a re-analysis of the deposited data

How the results depend on the processing

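The count of MYB probe sets passing stayed 0 except with a pseudocount of 64 and with an intensity trend and robust prior, where it was 1, MYB145. For all soybean probe sets the count of 11 became 1 with a pseudocount of 1, 57 with a pseudocount of 64, 5 with no filter, 149 with the trend and robust prior, 4 with 1 probe set per gene and 0 with PP arrays 1 and 2 averaged (chosen after seeing the data) or with any single array left out. With the replicate number as a block it was 0, and 0 MYB probe sets passed. Deviations from the layer means correlated at 0.0156, 0.0295 and 0.0493 between same-numbered samples. With 3 arrays per layer this cannot show whether such samples share a plant. The MYB median of 0.27 was 0.061 with no filter and ran from -0.056 (without PVM array 3) to 0.21 with 1 array left out. Above background on all PVM arrays were 24 MYB probe sets when those marked for shared sequence were left out. The difference turned sign for MYB175 with array weights (0.021) and ran between -0.70 and 0.22 with 1 array left out, for the MYB133 probe set at -0.19 with array weights (0.31) and ran between -0.56 and 0.42 with 1 array left out, and for that at 0.45 ran between -0.054 and 0.94. No other of the 25 tested probe sets picked by the naming rule changed sign in the settings that still tested it. Outside that rule, the 3 MYB139 probe sets and the MYB57 probe set at -0.33 did, among others. Over 10 settings of scaling, pseudocount or 1 array left out, 31 of 51 kept their sign in each setting that still tested them. Of these, 18 lay towards PVM and 13 towards PP. A probe set that left the test without an array was not judged there, so the count can overstate stability. Among the 31 are the MYB60 and MYB83 probe sets seen only in PVM, untested without any PVM array. The MYB50 probe set with 189 on PVM array 1, untested without that array, is another. Background level and the other filters left the counts within 1.5 times. The cause of these changes was not tested.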

Other observations

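Some MYB probe sets fall outside the rule because the annotation gives them several symbols. There are 15, of which 11 were tested, with 8 lower and 3 higher in PVM and adjusted p in limma from 0.428 to 0.975. Of these, 3 carry both MYB128 and MYB129, which RefSeq lists as a synonym of MYB128, and differed by -0.93, -0.60 and -0.51, beside -1.24 for the MYB128 probe set of the rule. They measured 32.8 to 155 in PVM and 89.5 to 228 in PP, with overlap between layers on 1 of the 3. Those shared by MYB112 and MYB50 differed by 0.65 and 0.98 (adjusted p in limma 0.625 and 0.460), both with overlapping deposited intensities. Beside them, MYB112 differed by 0.54, with overlap, and the bright MYB50 probe set by 0.75. The dim MYB50 probe set of the same cluster number lay the other way, at -0.88. Both shared probe sets measured lowest on PP array 3, at 581 and 631. A probe set shared by MYB175 and MYB176 reached 4844 on PP array 3 and 848 on PVM array 2, with a difference of -0.26. MYB12A, whose symbol ends in a letter, has 4 probe sets, none of them tested.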
